A study of Mus musculus with 12 samples.

Results

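Il1b, Ptgs2, Casp1, Nfkbia and Irak2 are 5 of the 561 genes counted in Ter-119 positive erythroid cells of the mouse spleen. They were taken by name as a group of inflammatory mediators and NF-kappaB feedback genes, and were chosen by their raw counts across the same blood loss, hypoxia and normal samples, with earlier results known. All 5 were present in the count table and passed the filter on low counts, Ptgs2 through its normal and hypoxia samples alone. Their levels, fold changes and overlaps between groups are therefore given as a description, without p-values.

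Acute blood loss was produced by a retro-orbital bleed of 0.5 to 0.8 mL under isoflurane. Acute hypoxia was produced by keeping mice for 16 h in a hypobaric chamber at -46 kPa, a pressure that corresponds to an altitude above 4500 m. Normal mice stayed under standard conditions. All mice were adult males of the F1 (CBA x C57BL/6) cross, 3 to 5 months old, and all spleens were collected on day 3. Every group, normal mice included, went through the same density gradient and positive magnetic selection for Ter-119, and RNA from 500000 cells went onto the nCounter Mouse Immunology v1 panel. This assay tallies barcoded probes bound to RNA, with no amplification step. The comparisons used 4 blood loss, 4 hypoxia and 3 normal samples.

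Interleukin-1 beta, encoded by Il1b, is a fever-inducing cytokine that is made as an inactive precursor. Casp1 encodes caspase-1, the inflammasome protease that cuts this precursor into its active form. Ptgs2 encodes cyclooxygenase-2, the inducible enzyme of prostaglandin synthesis. Irak2 encodes a kinase-like protein that carries signals from Toll-like and IL-1 receptors towards NF-kappaB. Nfkbia encodes IkappaB alpha, which holds NF-kappaB in the cytoplasm, and NF-kappaB in turn switches Nfkbia on, so that the inhibitor closes a feedback loop. In the spleen Il1b and Ptgs2 are best known as inducible genes of monocytes, macrophages and neutrophils.

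Upstream sequences of Il1b, Ptgs2 and Nfkbia are shown because their levels set the groups apart in different ways: the first pair was highest in normal samples and Nfkbia after blood loss. Each run holds the 250 bases before the transcription start, 5′ to 3′ on the gene's own strand, from RefSeq on GRCm38.p6. Capitals mark a TATAAA match in Il1b, a TTGCGCAA match in Ptgs2 and a match to the kappaB consensus in Nfkbia.
Il1b: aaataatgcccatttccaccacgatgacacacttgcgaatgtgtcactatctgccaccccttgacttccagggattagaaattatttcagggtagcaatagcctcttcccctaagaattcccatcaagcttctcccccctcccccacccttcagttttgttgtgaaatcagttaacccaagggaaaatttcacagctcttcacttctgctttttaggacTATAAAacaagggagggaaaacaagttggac
Ptgs2: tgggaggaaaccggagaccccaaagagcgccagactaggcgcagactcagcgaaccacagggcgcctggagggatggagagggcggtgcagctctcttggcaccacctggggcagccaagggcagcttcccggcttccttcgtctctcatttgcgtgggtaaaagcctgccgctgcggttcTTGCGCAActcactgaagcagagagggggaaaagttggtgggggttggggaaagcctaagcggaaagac
Nfkbia: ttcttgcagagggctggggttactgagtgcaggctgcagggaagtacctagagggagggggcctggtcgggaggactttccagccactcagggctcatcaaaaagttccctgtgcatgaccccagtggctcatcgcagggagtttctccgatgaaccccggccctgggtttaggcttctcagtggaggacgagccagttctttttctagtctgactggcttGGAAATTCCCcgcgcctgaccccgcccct

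Il1b lies on the minus strand of chromosome 2 (chr2:129364569-129371164), and its printed run is chr2:129371140-129371389. The start used for it in the RefSeq promoter table lies slightly inside the annotated gene span, so the end of the run overlaps the gene. Ptgs2 lies on the plus strand of chromosome 1 (chr1:150100031-150108234), with the run at chr1:150099781-150100030. Nfkbia lies on the minus strand of chromosome 12 (chr12:55489409-55492647), with the run at chr12:55492648-55492897. Casp1 (chr9:5298517-5307281) and Irak2 (chr6:113638467-113695026) both lie on plus strands. All 5 genes were matched to RefSeq by symbol. Both strands of each window were searched for 5 motifs: the kappaB consensus, its looser form (3 G, 5 bases of any kind and 2 C), TATAAA, the C/EBP palindrome TTGCGCAA and the cAMP response element TGACGTCA. The kappaB consensus was found in Nfkbia, from 29 to 20 bases before the start, and in 7.01% of 27025 mouse promoter windows of the same length. The looser form includes every consensus match and was present in 45.4% of windows, among them Ptgs2, Casp1 and Nfkbia. TATAAA stood 31 to 26 bases before the Il1b start and is present in 13% of windows. TTGCGCAA stood 69 to 62 bases before the Ptgs2 start and is present in 0.17% of windows. The window of Irak2 held no match to any of these motifs, and TGACGTCA, present in 1.62% of windows, was in none of the 5. These matches describe letters and say nothing of binding in these cells.

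Total counts ran from 7016 to 31006 in blood loss, from 44254 to 81370 in hypoxia and from 43956 to 253712 in normal samples, so precision was lowest after blood loss. Levels are raw counts divided by a library factor from 6 housekeeping genes, called scaled counts here. The 7 erythroid and progenitor markers on the panel summed to 557 to 1001 scaled counts after blood loss, 480 to 1099 after hypoxia and 394 to 704 in normal samples. Of the 4 tested, 3 rose and 1 fell against normal in each treatment by edgeR. Of all 252 genes tested, 9.92% rose and 17.1% fell after blood loss, and 7.54% rose and 32.9% fell after hypoxia. Tfrc, the transferrin receptor of developing red cells, stood at 232 to 507 after blood loss, 184 to 642 after hypoxia and 116 to 143 in normal samples, and Cd55, a complement regulator, at 140 to 185, 121 to 195 and 199 to 458. Kit and Cd59b stayed under a raw count of 20 in every sample. A raw count of 20 was the detection level used. The normal samples differed among themselves. Il1b reached 326 and 272 scaled counts in Normal 2 and Normal 3 but 52.0 in Normal 1, and values with and without Normal 1 are given below. The column of a further normal sample, Normal 4, was left out because each of its 561 counts equalled the median of the other 3 plus 3.

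Il1b was lower in hypoxia samples than in every normal sample, and after blood loss it lay mostly below them. Scaled counts were 86.1, 35.6, 44.5 and 39.4 in blood loss samples, 12.4, 10.8, 8.56 and 27.0 in hypoxia samples, and 52.0, 326 and 272 in normal samples. The highest hypoxia sample lay below the lowest normal sample, whereas Acute blood loss 1 lay above Normal 1. Means were 51.4 ± 23.4 after blood loss, 14.7 ± 8.35 after hypoxia (SD, n = 4 each) and 217 ± 145 in normal samples (SD, n = 3). The fitted log2 fold change was −2.11 (SE 0.56) for blood loss against normal and −3.87 (SE 0.56) for hypoxia against normal, which is 4.32-fold and 14.6-fold lower. Among the 252 genes tested, Il1b had the lowest fold change in the hypoxia comparison and ranked 4 from the lowest in the blood loss comparison. Raw counts were 6 to 28 after blood loss and 11 to 48 after hypoxia, against 46 to 1683 in normal samples, so the size of these changes rests on low counts in the treated groups. The 95% exact Poisson interval of the lowest, 6 counts, runs from 2.20 to 13.1 counts and covers counting error only.

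The size of the Il1b difference depended on the normal samples. Without Normal 1 the log2 fold changes were −2.56 for blood loss and −4.31 for hypoxia. With Normal 1 as the only normal sample, a setting chosen after seeing the data in which the lone sample is assumed to vary like the other groups, they were −0.035 and −1.79. Blood loss samples thus stood close to Normal 1 on average, while hypoxia samples stood below all 3 normal samples.

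Ptgs2 followed Il1b. Scaled counts were 12.3, 28.0, 14.8 and 11.2 after blood loss, 10.3, 6.89, 3.99 and 14.1 after hypoxia, and 24.9, 74.6 and 79.2 in normal samples. Acute blood loss 2 lay above Normal 1, and every other treated sample lay below all normal samples. Means were 16.6 ± 7.75 after blood loss, 8.82 ± 4.35 after hypoxia (SD, n = 4 each) and 59.6 ± 30.1 in normal samples (SD, n = 3). The log2 fold change was −1.91 (SE 0.44) for blood loss and −2.78 (SE 0.38) for hypoxia, each against normal. Ptgs2 was at 20 raw counts or above in 0 of 4 blood loss, 1 of 4 hypoxia and 3 of 3 normal samples. Its raw counts after blood loss were 4, 11, 2 and 8, which cannot be told from an unknown background, and when 8 counts were subtracted from every value the fold changes became −4.71 and −3.85. Without Normal 1 they were −2.23 and −3.09, and with Normal 1 alone −0.60 and −1.46.

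**Figure D1:**
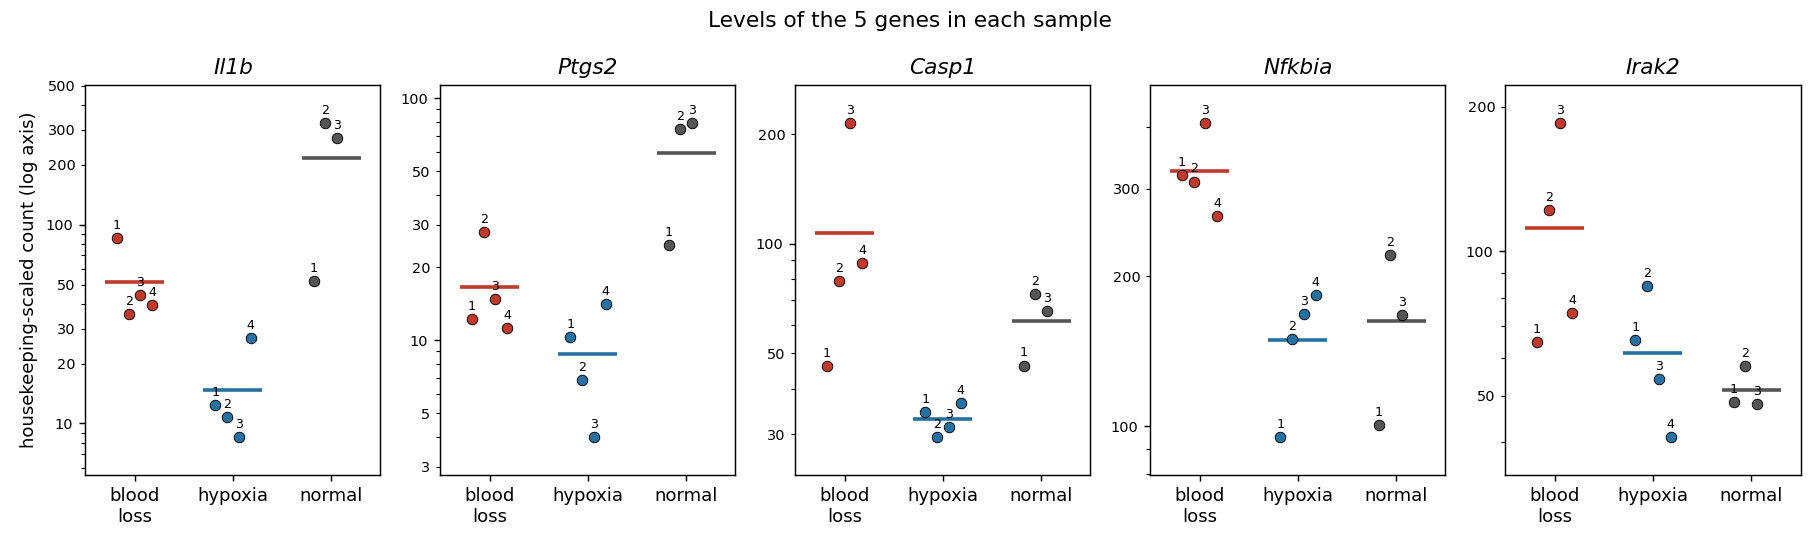
Housekeeping-scaled counts of the 5 genes on log axes, with 1 point per sample, labelled by its sample number, and a bar at the group mean. In Il1b and Ptgs2 all hypoxia samples lie below all normal samples, in Casp1 the hypoxia samples lie below both other groups, and in Nfkbia and Irak2 all blood loss samples lie above all normal samples.

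Casp1 differed in another way, being low after hypoxia and variable after blood loss. Scaled counts were 46.1, 78.9, 215 and 88.6 after blood loss, 34.5, 29.5, 31.4 and 36.6 after hypoxia, and 46.3, 72.7 and 65.3 in normal samples. The hypoxia samples were close together and below all others, and the blood loss samples spanned the normal range. Means were 107 ± 74.2 after blood loss, 33.0 ± 3.14 after hypoxia (SD, n = 4 each) and 61.5 ± 13.6 in normal samples (SD, n = 3). The log2 fold change against normal was 0.65 (SE 0.36) for blood loss and −0.91 (SE 0.34) for hypoxia, and hypoxia against blood loss gave −1.56 (SE 0.35). The blood loss mean leaned on Acute blood loss 3, where 29 raw counts (95% exact Poisson interval 19.4 to 41.6) in a library of 7016 gave the value of 215. Without that sample the blood loss difference was 0.22 and that between hypoxia and blood loss −1.13.

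Nfkbia was highest after blood loss. Scaled counts were 320, 311, 408 and 264 after blood loss, 95.1, 150, 168 and 183 after hypoxia, and 101, 221 and 167 in normal samples. Every blood loss sample exceeded every other sample, and the hypoxia and normal ranges overlapped. Means were 326 ± 60.0 after blood loss, 149 ± 38.5 after hypoxia (SD, n = 4 each) and 163 ± 60.5 in normal samples (SD, n = 3). The log2 fold change against normal was 0.97 (SE 0.31) for blood loss, which is 1.96-fold, and −0.14 (SE 0.29) for hypoxia. It was 0.57 for blood loss with the deposited size-factor method, and 0.72 without Normal 1. For hypoxia the sign changed with the scaling, to between 0.029 and 0.41 under the 4 other scalings tried. Raw counts of Nfkbia were 55 or more in all 11 samples, the best supported of the 5 genes after blood loss.

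Irak2 was also higher after blood loss, by a margin close to the spread. Scaled counts were 64.6, 122, 185 and 74.5 after blood loss, 65.5, 84.6, 54.2 and 41.1 after hypoxia, and 48.6, 57.6 and 48.2 in normal samples. All blood loss samples lay above all normal samples, and the hypoxia samples lay on both sides of the normal range. Means were 112 ± 55.2 after blood loss, 61.3 ± 18.4 after hypoxia (SD, n = 4 each) and 51.5 ± 5.34 in normal samples (SD, n = 3). The log2 fold change against normal was 1.02 (SE 0.35) for blood loss and 0.24 (SE 0.32) for hypoxia. The blood loss value was 0.57 with the deposited size-factor method and 0.75 without Acute blood loss 3.

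Between the treatments, all 5 genes had lower fitted levels after hypoxia than after blood loss with housekeeping scaling. The log2 fold change of hypoxia against blood loss was −1.76 (SE 0.60) for Il1b, −0.87 (SE 0.50) for Ptgs2, −1.11 (SE 0.28) for Nfkbia and −0.78 (SE 0.32) for Irak2, beside −1.56 for Casp1. In Il1b, Casp1 and Nfkbia the samples of the 2 treatments did not overlap, and in Ptgs2 and Irak2 they did. The median over all 252 tested genes was −0.25, and it was 0.60 with the deposited size-factor method, under which Nfkbia stood at −0.23 and Irak2 turned to 0.12. Direction between the treatments is therefore tied to the scaling for Irak2, and the sign for Ptgs2 turned to 0.86 when 8 counts were subtracted.

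**Figure D2:**
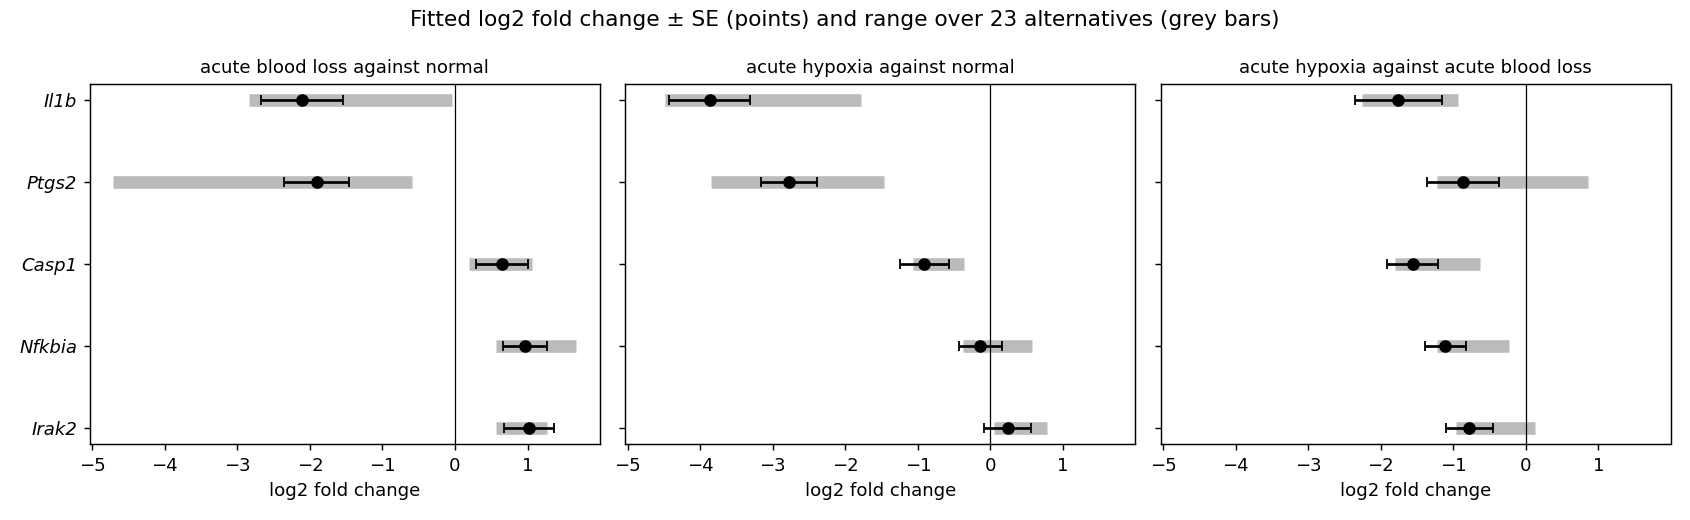
Fitted log2 fold changes of the 5 genes in the 3 comparisons (points, with SE bars) and the lowest and highest value over 23 alternatives (grey bars). Il1b and Ptgs2 stay below 0 in both comparisons with normal, Nfkbia and Irak2 stay above 0 for blood loss, and Nfkbia crosses 0 for hypoxia.

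In the comparison of blood loss with normal, edgeR's quasi-likelihood test called 2 of the 5 genes lower (Il1b and Ptgs2) and 2 higher (Nfkbia and Irak2). Over all 252 genes tested, 17.1% were called lower and 9.92% higher, 27% in all. For hypoxia against normal it called 3 lower (Il1b, Ptgs2 and Casp1), and 0 higher, against 32.9% and 7.54% of all genes, 40.5% together. For hypoxia against blood loss it called 2 lower (Casp1 and Nfkbia), and 0 higher, against 8.33% and 0.397% of all genes, 8.73% together. Groups did not overlap, with the blood loss samples higher, in 2 of the 5 genes and in 11.5% of all genes, and with them lower in 0 and in 15.9%. With the hypoxia samples lower than normal they did not overlap in 3 of the 5 genes and in 34.1% of all genes, and with them higher in 0 and in 8.73%. Against blood loss, the hypoxia samples lay lower without overlap in 3 genes and in 10.3% of all genes, and higher in 0 and in 2.78%. Since the genes were chosen with these comparisons known, nothing is read from the counts. Over all tested genes the median was −0.24 on the log2 scale for blood loss and −0.49 for hypoxia against normal, and the values of the 5 genes stand relative to that shift. Both comparisons share the same normal samples.

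Several of these calls rested on single libraries or on the scaling. The call of Nfkbia for blood loss was lost without Acute blood loss 3 (0.86), Normal 1 (0.72) or Normal 3 (0.98), and that of Irak2 without Acute blood loss 2 (0.92), Acute blood loss 3 (0.75), Normal 2 (1.11) or Normal 3 (0.98). Both were lost with the deposited size-factor method and with all 14 housekeeping genes (0.71 for Nfkbia and 0.75 for Irak2). The call of Casp1 for hypoxia was lost without Acute hypoxia 1 (−0.93), Acute hypoxia 2 (−0.87), Acute hypoxia 3 (−0.88), Acute blood loss 4 (−0.91), Normal 2 (−0.78) or Normal 3 (−0.87), and under all 4 other scalings (−0.37 to −0.75). That of Nfkbia between the treatments was lost without Acute blood loss 2 (−1.13), without Acute blood loss 3 (−1.0) and without Acute hypoxia 1 (−0.95), and with the deposited size-factor method (−0.23) or all 14 housekeeping genes (−0.69), where that of Casp1 was lost too (−0.63 and −1.13). The losses named here are not complete. Of 23 alternatives, Irak2 for blood loss was called in 15, Casp1 for hypoxia in 11 and Casp1 between the treatments in 20. The calls of Il1b and Ptgs2 against normal held when any single library was left out, but each such setting kept Normal 2 or Normal 3. With Normal 1 alone the blood loss values were −0.035 for Il1b and −0.60 for Ptgs2. The genes were chosen with these comparisons known, so no support is drawn from calls that held.

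A ratio of 2 raw counts from the same sample needs no library factor and so does not depend on the scaling. It is used here only to compare samples, since each probe has its own efficiency. The ratio of Il1b to Nfkbia was 0.269, 0.115, 0.109 and 0.149 after blood loss, 0.130, 0.0724, 0.0510 and 0.147 after hypoxia, and 0.517, 1.47 and 1.63 in normal samples. The highest treated sample lay below Normal 1, so in this ratio Normal 1 did not overlap with the blood loss samples. Scaled Nfkbia was itself higher in every blood loss sample than in every normal sample, which lowers a ratio to Nfkbia after blood loss. The ratio of Ptgs2 to Nfkbia was 0.0385, 0.0902, 0.0364 and 0.0426 after blood loss, 0.109, 0.0461, 0.0238 and 0.0767 after hypoxia, and 0.247, 0.337 and 0.473 in normal samples. Here too every treated sample lay below every normal sample.

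Ptgs2 gave the same separation against Casp1 and Irak2. Its ratio to Casp1 was 0.0690 to 0.355 after blood loss, 0.127 to 0.385 after hypoxia and 0.537 to 1.21 in normal samples. Its ratio to Irak2 was 0.0800 to 0.229 after blood loss, 0.0737 to 0.342 after hypoxia and 0.512 to 1.64 in normal samples. Scaled Irak2, like Nfkbia, was higher in every blood loss sample than in every normal sample, which lowers a ratio to it after blood loss. Raw counts of Ptgs2 were only 2 to 11 after blood loss, so its ratios there rest on few counts. Il1b to Casp1 overlapped for blood loss, where Acute blood loss 1 stood at 1.87 against 1.12 in Normal 1. Il1b to Irak2 overlapped as well, at 1.33 in Acute blood loss 1 against 1.07 in Normal 1. Il1b to Ptgs2 overlapped in both comparisons, at 1.27 to 7 after blood loss, 1.20 to 2.14 after hypoxia and 2.09 to 4.37 in normal samples. Of the 10 possible pairs, 4 did not overlap between blood loss and normal and 7 between hypoxia and normal. Among all 31626 pairs of tested genes 33.9% and 40.6% did not overlap in these comparisons, so such separation was common in these samples.

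**Figure D3:**
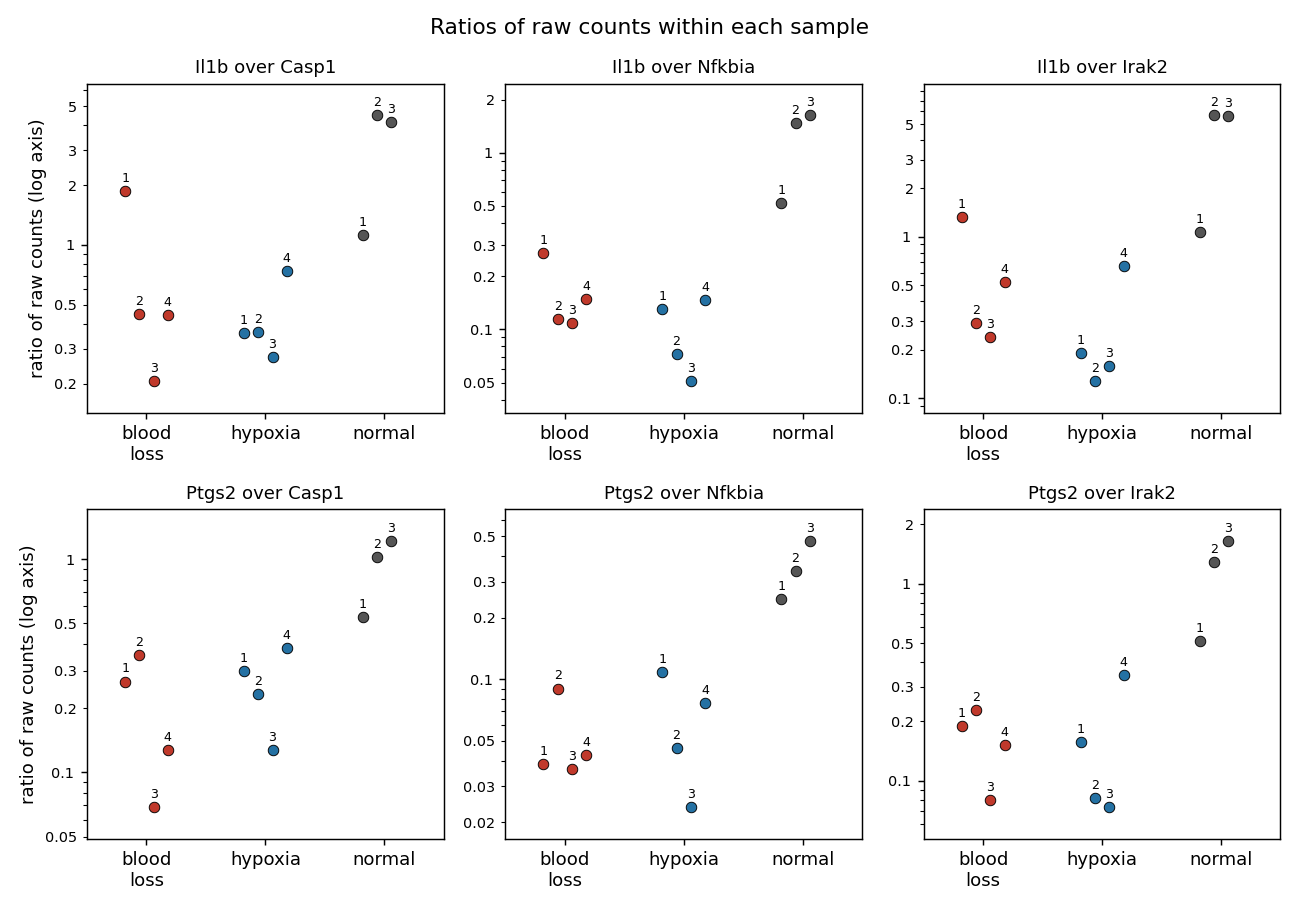
Ratios of the raw counts of Il1b (top row) and Ptgs2 (bottom row) to those of Casp1, Nfkbia and Irak2 in each sample, on log axes, with 1 point per sample labelled by its sample number. All treated samples lie below all normal samples for Il1b over Nfkbia and for the 3 ratios of Ptgs2, and Normal 1 is the lowest normal sample in each panel.

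The genes whose levels ran most like each of the 5 were ranked by Pearson's r of log2(scaled count + 1) over the 11 samples, among 251 other tested genes. The samples share their library factor and depth in both values of a pair, and Normal 2 and Normal 3 stand apart, so r is a description and is also given over the 8 treated samples. Il1b ran most like Icam2 (r = 0.96, and 0.93 over the treated samples), Ccl3 (0.94 and 0.92) and Ptgs2 (0.90 and 0.67). After Il1b, Ptgs2 ran most like Cd1d1 (0.89 and 0.73) and H2-Ob (0.88 and 0.56). Casp1 ran most like Dpp4 (0.93 and 0.93), Casp8 (0.91 and 0.94) and Irak1 (0.90 and 0.94). Nfkbia ran most like Ebi3 (0.90 and 0.96), Icam1 (0.88 and 0.90) and Irak1 (0.86 and 0.90), and Irak2 most like Atg16l1 (0.91 and 0.91), Tbk1 (0.91 and 0.92) and Ifnar2 (0.84 and 0.85). Among the 5 themselves, r was 0.71 for Casp1 and Nfkbia, 0.69 for Casp1 and Irak2 and 0.63 for Nfkbia and Irak2, whereas Il1b stood at 0.29 with Nfkbia and −0.16 with Irak2. Over the 8 treated samples the picture differed, with 0.81 for Il1b and Nfkbia and 0.67 for Il1b and Ptgs2.

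Other genes of the pathway came from 8 lists that together hold 83 further genes on the panel, of which 42 were tested. For blood loss against normal, 4 of the 42 rose, 5 fell and 33 were not called (edgeR quasi-likelihood test, Benjamini-Hochberg adjusted over all 252 genes), against 9.92% and 17.1% of all genes. For hypoxia against normal, 2 rose, 10 fell and 30 were not called, against 7.54% and 32.9% of all genes. For hypoxia against blood loss, 0 rose, 4 fell and 38 were not called, against 0.397% and 8.33% of all genes. The median log2 fold change of the 42 was 0.073 for blood loss and −0.14 for hypoxia against normal, beside −0.24 and −0.49 over all tested genes. With TMM factors 7 rose and 3 fell after blood loss and 17 rose and 5 fell after hypoxia, so the split for hypoxia depends on the scaling. With the deposited size-factor method 3 rose and 11 fell after blood loss, 13 rose and 5 fell after hypoxia, and 22 rose and 1 fell between hypoxia and blood loss.

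Among ligands and receptors of the IL-1 family, 10 of 11 other genes on the panel did not reach the level for testing. Il1r2, the decoy receptor that binds IL-1 without signalling, fell to 73.5 ± 25.3 scaled counts after blood loss and 72.1 ± 16.6 after hypoxia (SD, n = 4 each), against 165 ± 64.4 in normal samples (SD, n = 3). Its edgeR log2 fold changes were −1.18 (SE 0.33, adjusted p = 0.01) and −1.21 (SE 0.30, adjusted p = 0.00249). The blood loss call was lost without Acute blood loss 4 (−0.95) or Normal 2 (−0.86), and the hypoxia call without Normal 2 (−0.88), and under TMM or the deposited size-factor method. Raw counts of Il1rn, which encodes the IL-1 receptor antagonist, did not exceed 6 after blood loss or 9 after hypoxia and were 8, 36 and 70 in Normal 1, Normal 2 and Normal 3. Those of Il18, another caspase-1 substrate, did not exceed 9 in either treated group and were 8, 66 and 121 in the normal samples. Depth differed too much for a comparison of these 2 genes.

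Of 13 tested receptor signalling genes, 1 rose and 1 fell after blood loss, against 9.92% and 17.1% of all genes tested. After hypoxia 2 of the 13 fell, against 32.9% of all genes tested. Irak3, an inhibitory relative of Irak2, rose after blood loss (edgeR log2 fold change 1.06, SE 0.38, adjusted p = 0.0414) and Traf5, an adaptor of TNF receptors, fell (−1.08, SE 0.40, adjusted p = 0.0442). The call of Irak3 was lost without Acute blood loss 2 (0.70), Acute blood loss 3 (0.90), Acute blood loss 4 (1.20), Normal 1 (0.95) or Normal 3 (0.96), with the deposited size-factor method (0.64), with all 14 housekeeping genes (0.82) and with 8 counts subtracted (0.79). That of Traf5 was lost without Acute blood loss 1 (−0.76), Acute blood loss 3 (−1.16), Acute blood loss 4 (−1.07), Acute hypoxia 3 (−1.07), Normal 2 (−0.84) or Normal 3 (−0.98), with TMM factors (−0.76), without Rpl19 (−0.96) and in the replicate block (−0.96). Irak4, the kinase upstream of Irak2, fell after hypoxia to 11.1 ± 2.71 scaled counts (SD, n = 4), against 28.1 ± 5.78 in normal samples (SD, n = 3). By edgeR its log2 fold change was −1.40 (SE 0.31, adjusted p = 0.000793). Only 1 hypoxia sample had 20 or more counts of it. Against blood loss, hypoxia samples were lower for Irak4 by edgeR (−1.54, adjusted p = 0.00721), a call lost with the deposited size-factor method, all 14 housekeeping genes or 8 counts subtracted. Syk, a kinase of immune receptors, fell after hypoxia (edgeR −0.76, adjusted p = 0.0365). This call did not hold under the 4 other scalings, in the replicate block (−0.70), with 8 counts subtracted (−0.77), or without Acute hypoxia 1 (−0.74), Acute hypoxia 2 (−0.68), Acute hypoxia 3 (−0.82), Normal 2 (−0.63) or Normal 3 (−0.62). Myd88, the adaptor shared by most of these receptors, stood at −0.15 (adjusted p = 0.768) and −0.17 (adjusted p = 0.635) in the edgeR fit.

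Of 5 tested IkappaB kinase genes, Tbk1 rose after blood loss and Ikbke fell after hypoxia. Of all genes tested, 9.92% rose after blood loss and 32.9% fell after hypoxia. Tbk1, a kinase of interferon induction, stood at 67.7 ± 23.2 scaled counts after blood loss and 29.0 ± 6.50 after hypoxia (SD, n = 4 each), against 19.5 ± 4.68 in normal samples (SD, n = 3). Its edgeR log2 fold change for blood loss was 1.67 (SE 0.32, adjusted p = 0.000503). It was lower in hypoxia than in blood loss samples (−1.16, adjusted p = 0.012), which did not pass without Acute blood loss 2 (−1.05), without Acute blood loss 3 (−1.02), without Acute hypoxia 3 (−1.07), with the deposited size-factor method, with all 14 housekeeping genes or with 8 counts subtracted (−0.81). Ikbke fell after hypoxia to 14.9 ± 7.0, against 38.9 ± 4.46 in normal samples (−1.37, SE 0.33, adjusted p = 0.00174). The calls of Tbk1 for blood loss and of Ikbke were lost when 8 counts were subtracted.

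The NF-kappaB subunit genes Nfkb1, Nfkb2, Rela and Relb were not called in either comparison with normal by edgeR. None of the 4 had an unadjusted p under 0.05 there, and the DESeq2 Wald test called 0 for blood loss and 1 for hypoxia. Nfkb1 stood at 0.53 for blood loss (adjusted p = 0.131) and 0.48 for hypoxia (adjusted p = 0.121) in the edgeR fit. Feedback genes besides Nfkbia were Tnfaip3, which encodes the deubiquitinase TNFAIP3, and Nfkbiz, which encodes an inducible nuclear IkappaB protein. Unadjusted p was under 0.05 for 1 of them in each comparison, and DESeq2 called 0. Tnfaip3 was not called, at −0.37 (adjusted p = 0.457) and −0.17 (adjusted p = 0.702), and neither was Nfkbiz, at −0.80 (adjusted p = 0.0799) and −0.70 (adjusted p = 0.0795). Tnfaip3 and Nfkbiz thus had negative values for blood loss, the opposite sign to Nfkbia in the same fit.

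Among 13 tested cytokines and other NF-kappaB targets, 2 rose and 3 fell after blood loss, against 9.92% and 17.1% of all genes tested. Icam1, an adhesion ligand of leukocytes, rose to 47.9 ± 9.56 scaled counts (SD, n = 4), against 9.95 ± 3.39 in normal samples (SD, n = 3). In the edgeR fit this was 2.16 on the log2 scale (SE 0.40, adjusted p = 0.000388). It was lower in hypoxia than in blood loss samples (−2.09, adjusted p = 0.00219), and both calls were lost when 8 counts were subtracted. Plaur, the urokinase receptor, rose to 580 ± 226, against 228 ± 33.2 in normal samples (1.34, SE 0.34, adjusted p = 0.0053). It was also lower in hypoxia than in blood loss samples (−1.12, adjusted p = 0.0254), which did not pass without Acute blood loss 2 (−0.87), 3 (−1.09) or 4 (−1.13), under 3 of the 4 other scalings or in the replicate block (−1.08). Ltb, which encodes lymphotoxin beta, fell to 66.1 ± 26.9, against 259 ± 90.4 in normal samples (−1.98, SE 0.33, adjusted p = 0.000182). The chemokine genes Ccl5 (−2.20, adjusted p = 0.000355) and Ccl3 (−1.30, adjusted p = 0.0088) also fell. The Ccl3 call was lost without Normal 2 (−0.89) and with TMM factors, and with Normal 1 alone its value was 0.31. With Normal 1 alone the hypoxia value was −0.26, also without a call.

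After hypoxia 2 of these 13 genes rose and 5 fell, against 7.54% and 32.9% of all genes tested. Ccl5, Ccl3 and Ltb fell again in the edgeR fit, at −3.0 (adjusted p = 1.61e-06), −1.86 (adjusted p = 0.000153) and −1.55 (adjusted p = 0.000245). Csf1, the macrophage growth factor, and Bcl2, a survival protein, fell at −0.92 (adjusted p = 0.0324) and −0.95 (adjusted p = 0.0186). Cd83, a maturation marker of dendritic cells and B cells, rose to 742 ± 306, against 343 ± 231 in normal samples (1.13, SE 0.40, adjusted p = 0.0247), and Il12a rose at 0.70 (adjusted p = 0.041). The Csf1 call was lost under the 4 other scalings and without Acute hypoxia 1 (−0.75), Acute hypoxia 3 (−0.91), Normal 2 (−0.75) or Normal 3 (−0.87), and the Bcl2 call under 3 of the 4 and without Acute hypoxia 3 (−0.86) or Normal 2 (−0.66). The Cd83 call was lost without Acute hypoxia 3 (0.99), Acute hypoxia 4 (0.91), Normal 2 (0.95) or Normal 3 (0.80), with only those groups fitted (1.12) and in the replicate block (1.10). Subtracting 8 counts also ended the calls of Csf1 (−1.35), Bcl2 (−1.54) and Casp8 (−0.95). With Normal 1 alone for normal, the blood loss values of called pathway genes were 2.52 for Icam1, 2.11 for Tbk1, 1.59 for Plaur and 1.33 for Irak3. They were −2.23 for Ccl5, −1.24 for Ltb, −0.49 for Il1r2 and −0.20 for Traf5, and Ccl3 changed sign to 0.31. For hypoxia Irak4 then stood at −0.97, Il1r2 at −0.52, Casp8 at −0.39 and Syk at −0.11. A single normal sample gives no spread among normal samples, so only values are given here. The Il12a call was lost without Acute hypoxia 2 (0.70), Acute hypoxia 3 (0.61), Acute hypoxia 4 (0.66), Normal 1 (0.66) or Normal 3 (0.61), with no filter (0.70) and with 8 counts subtracted (0.75). Casp8, an apoptosis initiator on the inflammasome and caspase list, fell at −0.81 (adjusted p = 0.0288). That call was missed under the 4 other scalings, and without Acute hypoxia 1 (−0.76), Acute hypoxia 2 (−0.75), Acute hypoxia 3 (−0.83), Normal 2 (−0.62) or Normal 3 (−0.83). Ptger4, a prostaglandin E receptor, stood at 0.80 (adjusted p = 0.127) for blood loss and 0.53 (adjusted p = 0.194) for hypoxia and was not called.

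**Figure D4:**
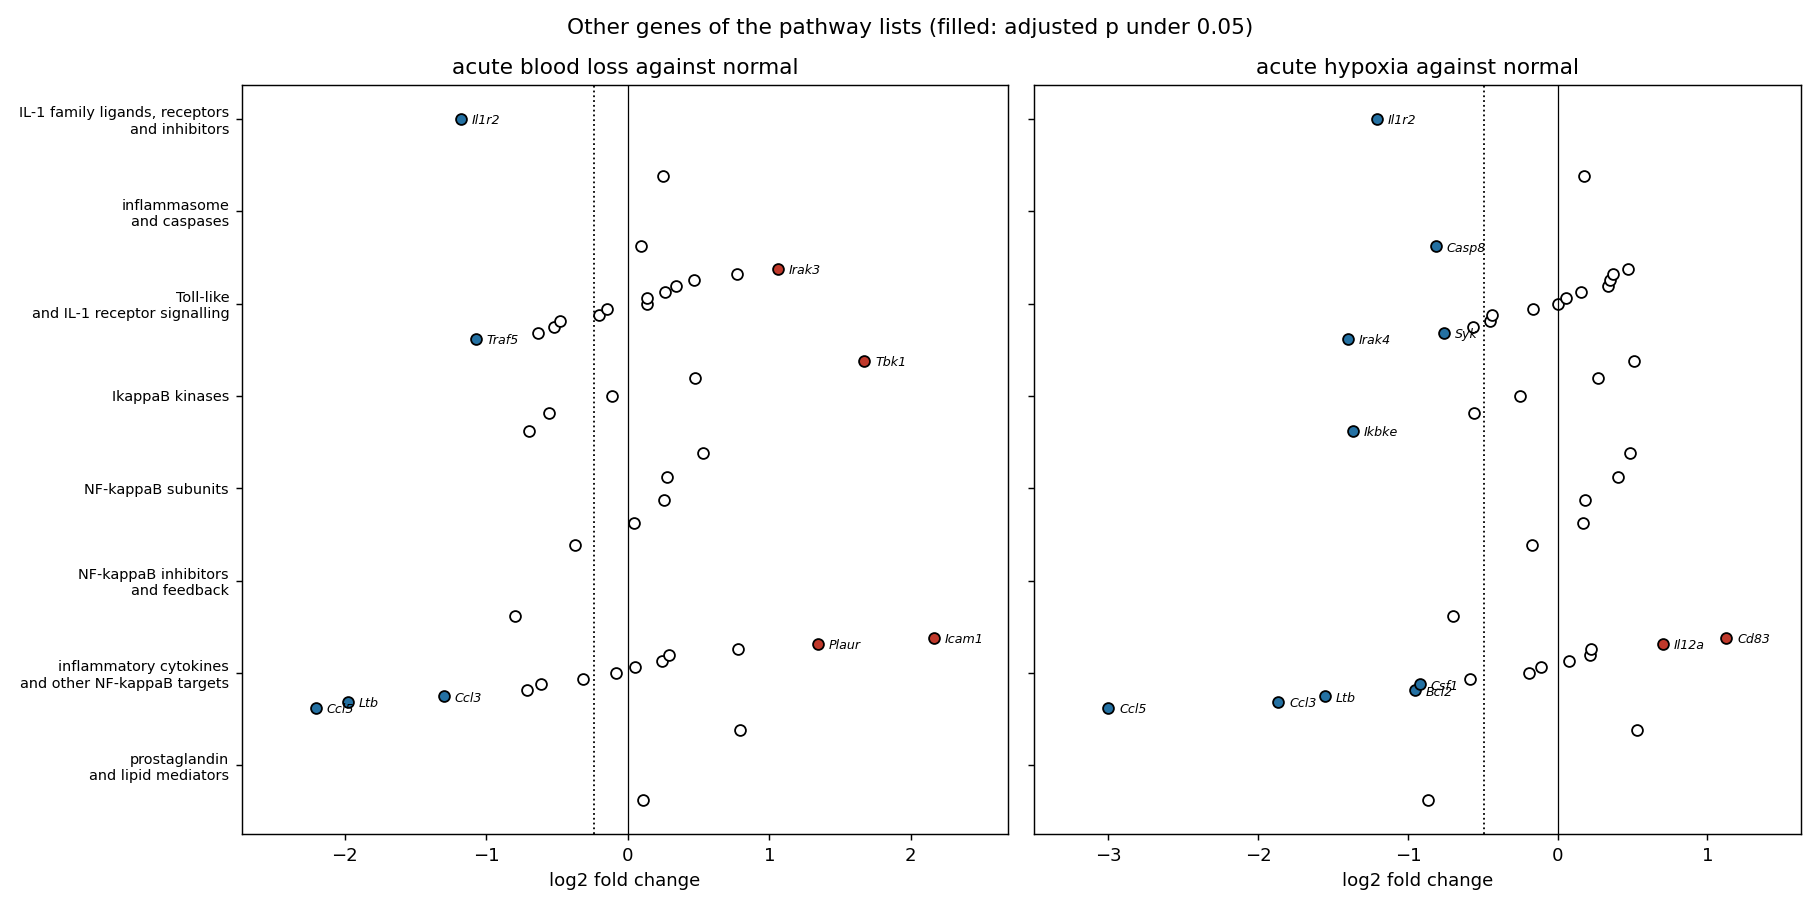
Log2 fold changes of the 42 other pathway genes by list, for blood loss (left) and hypoxia (right) against normal. Filled, named points passed an adjusted p of 0.05, red for higher and blue for lower, and the dotted line marks the median of all 252 tested genes, at −0.24 and −0.49.

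Markers of other blood cells moved with the same groups. The summed scaled count of 10 macrophage and monocyte markers was 127 to 178 after blood loss, 34.2 to 83.6 after hypoxia and 210 to 296 in normal samples, the same order of groups as in the means of Il1b and Ptgs2. Members of the list differed: Ccr2 stood at 18.3 to 37.1 after blood loss, 3.93 to 6.20 after hypoxia and 70.0 to 79.8 in normal samples, whereas Cd14 stood at 22.5 to 49.2, 6.28 to 17.7 and 16.2 to 24.3. Cd163 and Cd209g, both under 20 raw counts in every sample, had higher scaled counts in all blood loss samples than in all normal samples. Of these 10 markers, 10 were below 20 raw counts throughout the blood loss group, 9 throughout the hypoxia group and 4 throughout the normal group (Cd163, Marco, Msr1 and Cd209g). Normal 1, with the lowest Il1b of the normal samples, had 210 for this sum, against 296 and 244 in Normal 2 and Normal 3. The 9 granulocyte markers summed to 3108 to 7049 after blood loss, 1659 to 3812 after hypoxia and 1791 to 2457 in normal samples. The sum did not follow the order of Il1b: it was higher in every blood loss sample than in every normal sample. Most of it came from S100a8 and S100a9, and Ltf and Cxcr1 stayed under 20 counts in every sample. Members of this list differed as well. After hypoxia Cxcr2 stood at 0.57 to 1.69, Ceacam1 at 4.14 to 7.31 and Itgam at 3.99 to 11.7. These lay below all normal samples, at 3.39 to 16.6, 12.4 to 28.8 and 13.6 to 33.3, whereas Camp and Cxcr1 lay above them. Cxcr2, Ceacam1 and Itgam were under 20 raw counts in every treated sample.

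Lymphocyte markers were lower in treated samples. The 16 T and NK cell markers summed to 738 to 1201 after blood loss, 565 to 1077 after hypoxia and 1276 to 1538 in normal samples. The 13 B cell markers summed to 1609 to 2655 after blood loss, 1568 to 2320 after hypoxia and 2197 to 4401 in normal samples, with Normal 1 inside the treated range. Platelet markers stayed near background, at 6.15 to 37.1, 6.20 to 12.9 and 4.52 to 7.09. The part of other cell types in the levels of Il1b, Ptgs2, Casp1, Nfkbia and Irak2 was not tested, and in these bulk samples fewer cells of a type and less RNA per cell cannot be told apart.

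**Figure D5:**
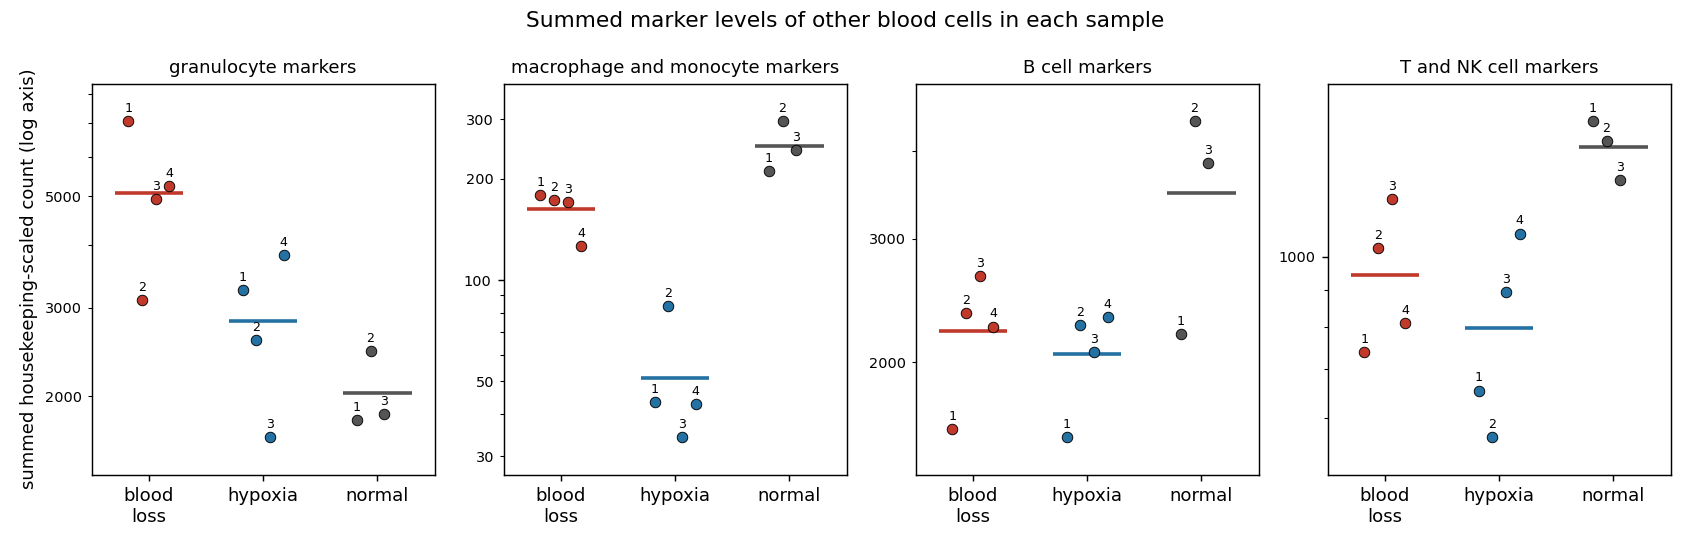
Summed housekeeping-scaled counts of 4 marker lists on log axes, with 1 point per sample labelled by its sample number and a bar at the group mean. Macrophage and monocyte markers are highest in normal and lowest in hypoxia samples, and granulocyte markers are higher in all blood loss samples than in all normal samples.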

How the data were processed

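Raw counts were whole numbers deposited by the authors for 561 genes in 12 columns. The deposited normalized count signal equals the raw count over a median-of-ratios size factor as DESeq2 computes it (largest relative difference 9.99e-16), and the deposited log2 values hold log2 of that signal plus 1, within 0.005, both as computed here. Counting software and background handling: not given in the sources used here. Control probes were not analysed here.

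Normal 4 was left out. The 5 genes, the gene lists and the settings were chosen with earlier results of these data known. Raw counts of 11 samples were fitted with edgeR 4.0.16 (robust quasi-likelihood, group as the only term) in R 4.3.3. Each library was scaled by the geometric mean of 6 housekeeping genes, those averaging at least 100 raw counts. These were not steady: scaled Eef1g averaged 347 after blood loss and 661 in normal samples, and Polr2a 388 and 203. Of 547 endogenous genes, 252 reached 20 raw counts in at least 4 samples and were tested. Calls were made at a Benjamini-Hochberg adjusted p under 0.05. Tested on simulated counts, the fit recovered 54.5% of 2-fold and 93.2% of 4-fold changes for blood loss against normal among 307 genes, and called 3.11% of unchanged genes. Those rates leave out differences that many genes share.

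Named pathway genes were those called in a comparison, up to 4 a list, with up to 2 others a list by level. Further called genes of the cytokine list and genes outside this rule, such as Il1rn, Il18 and Nos2, were named after their values were seen. Alternatives were other scalings, filters, DESeq2 1.42.0, 8 counts subtracted, other sample sets and a replicate block. Labels do not tie samples to animals, so p-values speak only of variation among samples, some of which may be technical. Same-numbered samples did not deviate together (r −0.25 to 0.13 over 10 pairs, 2 of them above 0.1).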

Additional observations from a re-analysis of the deposited data

How the results depend on the processing

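Of 345 log2 fold changes of the 5 genes under 23 alternatives each, 328 stayed within 1 SD of the samples. That SD ran from 0.42 for Nfkbia to 0.90 for Il1b on the log2 scale, wide enough to hold lost calls. Casp1 for hypoxia went from −0.91 to −0.37 inside it and lost its call. Some alternatives only left out a sample of a group not compared, so this share is no measure of stability. Counts of called genes moved more. For blood loss against normal, 25 genes were called higher and 43 lower, for hypoxia against normal 19 and 83, and for hypoxia against blood loss 1 and 21. The causes of the shifts below were not tested. With TMM factors 39 were higher for blood loss, 55 higher and 44 lower for hypoxia, and 7 and 11 between the treatments, with Nfkbia at 0.41 and Irak2 at 0.78 for hypoxia. With the deposited size-factor method the counts were 13 and 114, 51 and 50, and 96 and 1. Nfkbia then stood at 0.34 for hypoxia, and between the treatments Ptgs2 at −0.038, Casp1 at −0.63, Nfkbia at −0.23 and Irak2 at 0.12. With all 14 housekeeping genes they were 14 and 85 for blood loss and 5 and 1 between the treatments, with Nfkbia at −0.69. Without a filter they were 183 higher for blood loss, 34 and 162 for hypoxia and 5 and 230 between the treatments. With 8 counts subtracted they were 12 and 86, 11 and 51, and 7 and 2, and Ptgs2 stood at −4.71, −3.85 and 0.86. With Normal 1 alone standing for normal, a setting added once the data had been seen, they were 8 and 12 for blood loss and 3 and 19 for hypoxia. Il1b then stood at −0.035 and −1.79, Ptgs2 at −0.60 and −1.46, and Nfkbia at 1.67 and 0.57. With all 12 columns 67 were lower for blood loss. Between the treatments, 4 were higher with those columns, without Rpl19 and by DESeq2, which called 38 lower, and 2 with the 3-sample filter and with only the groups compared. Leaving out 1 sample gave 13 to 30 higher and 24 to 62 lower for blood loss, 11 to 19 and 54 to 106 for hypoxia, and 1 to 4 and 5 to 35 between the treatments. The replicate block gave 23 and 41, 20 and 84, and 1 and 16, with Il1b at −2.11 for blood loss. Whether same-numbered samples belong together is not given by the labels, and the correlations between them are too few to settle it.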

Other observations

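Of the 83 other pathway genes, 41 did not reach the level for testing. Among these, 20 reached 20 raw counts in normal samples and in no treated sample, 17 in no sample and 4 in some treated sample. Several inducible inflammatory genes were counted mainly in Normal 2 and Normal 3, which were also the deepest libraries. Raw Ccl2, a monocyte chemokine gene, was at most 11 after blood loss and 14 after hypoxia and was 13, 212 and 262 in Normal 1, Normal 2 and Normal 3. Raw Il6 did not exceed 4 in either treated group and was 4, 43 and 67 in the normal samples, and raw Ccl4 did not exceed 9 and was 6, 149 and 131.

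Nos2, which encodes the inducible nitric oxide synthase, ran the other way in scaled counts and was picked out after its values were seen. Its raw counts were 8, 21, 9 and 42 in blood loss samples, 8, 7, 12 and 16 in hypoxia samples and 2, 11 and 13 in normal samples, although the blood loss libraries were the shallowest. Scaled counts were 24.6, 53.4, 66.7 and 59.0 after blood loss, 5.51, 6.89, 6.85 and 9.0 after hypoxia and 2.26, 3.39 and 2.10 in normal samples. It fell short of the filter on low counts. In the edgeR fit of all endogenous genes without a filter its log2 fold change was 4.24 for blood loss against normal (SE 0.46, adjusted p = 3.34e-09). Scaled counts were higher in 4 of 4 blood loss samples. Raw counts of 8 and 9 in Acute blood loss 1 and 3 lay below the 11 and 13 of Normal 2 and Normal 3. Those of 21 and 42 in Acute blood loss 2 and 4 lay above. That fit called 183 of 547 endogenous genes higher after blood loss, and low counts weigh more in shallow libraries. The lower of these counts cannot be told from an unknown background, so both the rise and its size are uncertain.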
